A study of Mus musculus with 22 samples.

Results

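The genes described here encode proteins that write, remove or read methyl and acetyl marks on histones or that move nucleosomes. They were taken by symbol, as every gene of the deposited table named Kmt, Kdm, Chd, Arid or Brd with a number, named Setd or Smarc, or named Srcap, with Kdm5d left out. The rule found 72 of the 12596 genes in the table, with 15 Kmt and Setd genes, 16 Kdm, 11 Chd, 9 Arid, 13 Smarc, 7 Brd and Srcap. All 72 had passed the authors' own filter, and no further filter was applied. Chd3os was picked up by its symbol although it is named as an opposite-strand transcript of Chd3, not as a chromatin enzyme. GENCODE M21 lists it as protein-coding, with 570 coding bases and no exon overlap with another gene. It stays in the counts of the Chd genes.

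The mice carried a Th-cre transgene and the transgene Slc6a2-eGFP/Rpl10a on a C57Bl/6 background. The second places a tagged ribosomal protein in cells that use the noradrenaline transporter promoter, so that their ribosomes and the RNA on them can be immunoprecipitated. There were 5 animals infused with hTyr, the human pigment enzyme tyrosinase, and 6 infused with EYFP, a fluorescent control protein, and all 11 carried both transgenes. Each animal gave an immunoprecipitated library of ribosome-bound RNA (IP) and a library of hindbrain RNA before that step (input), which makes 4 groups, an IP group and an input group for each infusion. Ages are not used here. Animals are named by the titles of their IP libraries, such as IP_501. Values are log2 CPM, the log2 of reads scaled to a common library size with a small pseudocount, and a change is the difference between 2 group means on that scale.

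Histone methyltransferases of the Kmt2 and Setd1 families place methyl groups on lysine 4 of histone H3 at promoters and enhancers, and the Kdm enzymes take methyl groups off. Chd, Smarca and Srcap proteins are ATP-driven motors that slide, eject or exchange nucleosomes, usually inside large complexes such as BAF (with Arid1, Smarcb, Smarcc and Smarcd subunits), NuRD (with Chd3, Chd4 or Chd5) and ISWI (with Smarca5 or Smarca1). Brd proteins bind acetylated histones. In the nervous system, damaging variants of several of these genes, among them KMT2D, KMT2A, CHD7, CHD8, ARID1B and SMARCA4 in people, cause developmental disorders.

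The libraries held 12654489 to 25100142 reads in the table, and a member had between 38 and 19990 reads in a library. Noradrenergic markers fitted the labelled cell type: 12 of 13 were higher in IP than in input in EYFP animals and 13 of 13 in hTyr animals, with Slc6a2 higher by 3.94 and 4.47. Oligodendrocyte markers were present in both fractions, with a mean level over the markers of 8.37 to 8.79 log2 CPM in IP and 8.44 to 8.85 in input. Of 10 such markers, 5 were lower in IP in each treatment, and 2 were higher in EYFP and 3 in hTyr animals. Astrocyte markers ranged from 6.78 to 7.36 in IP and from 6.77 to 7.13 in input, with 1 of 10 lower in each treatment and 3 and 4 higher. Microglial markers ranged from 4.17 to 5.11 in IP and from 4.23 to 4.96 in input, with 1 of 10 lower in each treatment and 0 and 2 higher. RNA of these markers was thus present in the IP libraries, and its part in the results was not tested.

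The members did not move together out of the ribosome-bound RNA, although depletion was the pattern they were collected under. In EYFP animals 24 of 72 were lower in IP than in input, against 28.1% of all genes, and 28 were higher, against 28.5% of all genes (limma, Benjamini-Hochberg adjusted p under 0.05 over all genes). In hTyr animals 24 were lower, against 27% of all genes, and 25 were higher, against 27.4%. The 2 comparisons share no library. The median change over the members was 0.05 in EYFP and 0.02 in hTyr animals, beside -0.03 and -0.04 over all genes. Taking both treatments, 22 were lower in each, against 22.1% of all genes, and 24 were higher in both, against 24.2%. Together 46 of 72 (63.9%) were called in the same direction in both treatments, where 46.3% of all genes were. Members' changes in the 2 treatments had a Pearson r of 0.979 over 72 genes. A change between IP and input compares RNA recovered with tagged ribosomes, which included RNA of other cells, with RNA of all hindbrain cells. Fewer cells of a type, less RNA per cell, fewer ribosomes per RNA and RNA of other cells in IP cannot be told apart.

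**Figure D1:**
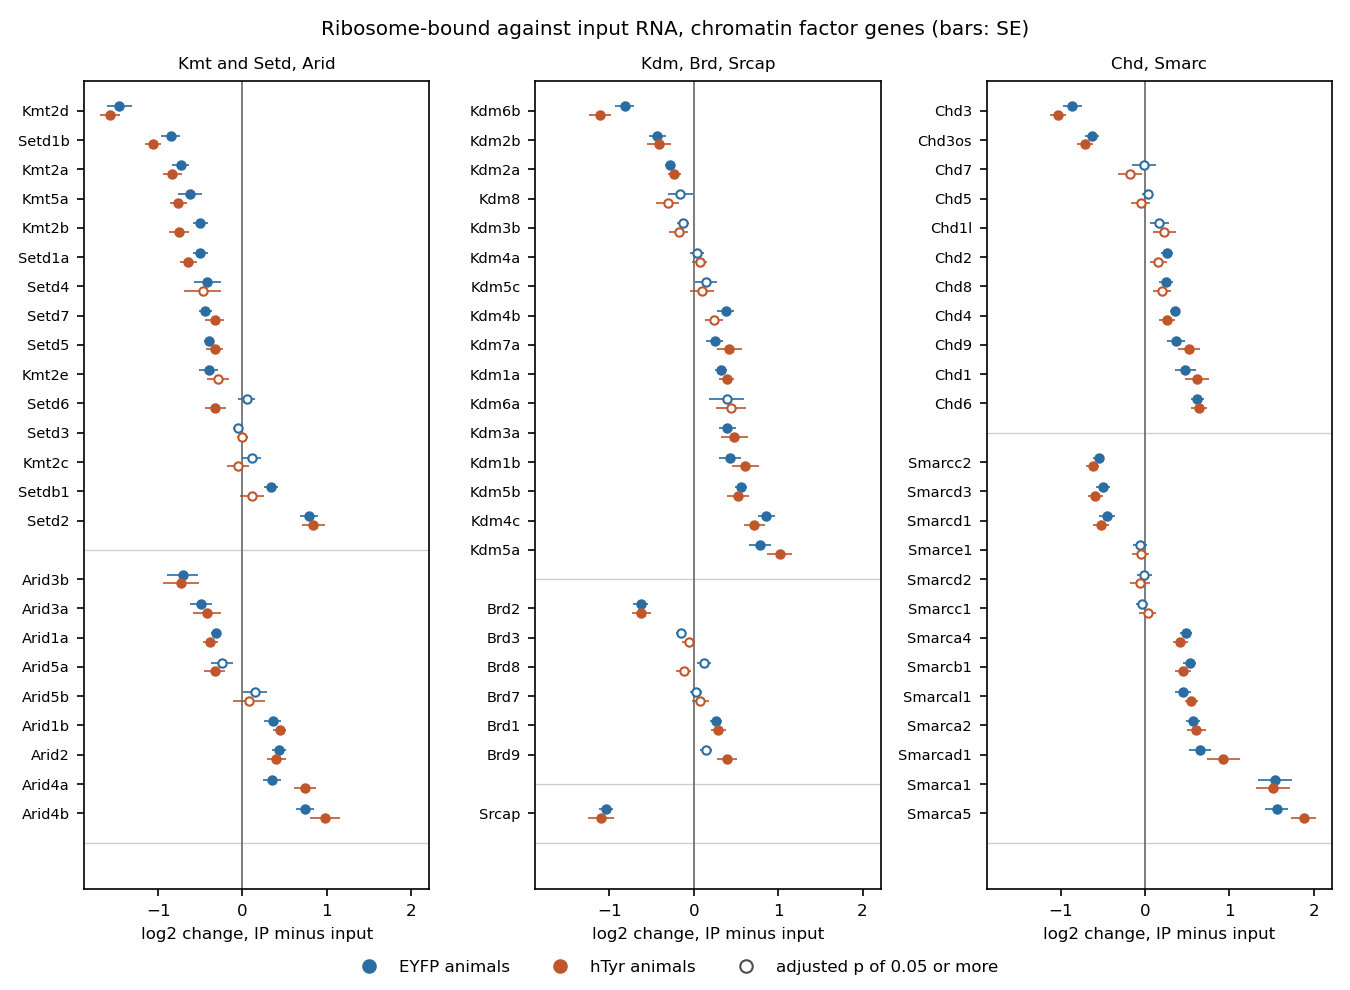
Change of 71 of the 72 members between IP and input (horizontal axis, log2 change with its standard error, left of 0 is lower in IP), by family, in EYFP animals (blue) and hTyr animals (orange). Filled points passed the adjusted threshold, and Kmt2d lies at -1.46 and -1.57 while Smarca5 lies at 1.56 and 1.88.

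The methyltransferases leaned downward. Of the 15 Kmt and Setd genes, 10 were lower in IP in EYFP animals and 2 were higher, against 28.1% and 28.5% of all genes. In both treatments 8 were lower and 1 higher, against 22.1% and 24.2% of all genes. The 8 were Kmt2d, Setd1b, Kmt2a, Kmt5a, Kmt2b, Setd1a, Setd7 and Setd5. Setd4 and Kmt2e passed in EYFP animals alone, Setd6 was lower in hTyr animals alone, and Kmt2c and Setd3 passed in neither. With the animal as a block, Setd4 passed in hTyr animals too (limma adjusted p = 0.0349). These single-treatment calls do not show a difference between the treatments, which is tested further on. The family's median change was -0.42 in EYFP and -0.33 in hTyr animals.

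Kmt2d (chr15:98831669-98871204 in GRCm38, minus strand), whose protein is an H3 lysine 4 methyltransferase of enhancers, had the largest fall of the members. In EYFP input it ranged from 6.76 to 7.22 log2 CPM with a median of 6.99, and in EYFP IP from 4.98 to 6.16 with a median of 5.43. In hTyr input the libraries held 6.89, 6.76, 7.06, 7.25 and 6.87, and in IP of the same animals 5.66, 5.43, 5.28, 5.02 and 5.58. Every IP library was below every input library. The change was -1.46 (SE 0.15, n = 6 and 6, limma adjusted p = 2.07e-06) and -1.57 (SE 0.12, n = 5 and 5, limma adjusted p = 3.43e-08), which left 36.4% and 33.6% of the input level. Among all 12596 genes this was the second lowest change in EYFP animals and the fifth lowest in hTyr animals.

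Its closest relative Kmt2c (chr5:25271798-25498783, minus strand), which serves the same enhancer complex, stayed near its input level. In EYFP animals it ranged from 4.78 to 5.59 in input and from 5.21 to 5.49 in IP. In hTyr animals it was 4.72, 5.14, 5.23, 5.50 and 4.77 in input and 5.0, 5.09, 5.03, 4.82 and 5.15 in IP. The groups overlapped in both treatments, with changes of 0.11 (SE 0.11, limma adjusted p = 0.397) and -0.05 (SE 0.13, limma adjusted p = 0.757). The gap between the genes, change of Kmt2c minus change of Kmt2d in the same animal, was 1.57 ± 0.27 (SD, n = 6) and 1.52 ± 0.14 (SD, n = 5), with Kmt2d the lower in 11 of 11 animals. Per kilobase of exon, Kmt2d stood at 6.34 CPM and Kmt2c at 1.90 CPM in EYFP input, and at 2.37 and 2.03 CPM in EYFP IP, so the difference in level was smaller in IP.

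The 2 coding sequences are shown over their most alike 40 codons, where 39 codons give the same residue. The reason is that their bases differ where the protein barely differs. They are from GENCODE M21 (GRCm38), 5′ to 3′ along the coding strand, bases 15247 to 15366 of the Kmt2d coding sequence and 13183 to 13302 of that of Kmt2c, with capitals at the bases that differ.
Kmt2d: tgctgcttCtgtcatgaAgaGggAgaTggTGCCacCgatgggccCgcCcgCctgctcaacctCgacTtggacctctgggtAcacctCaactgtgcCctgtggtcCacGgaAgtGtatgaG
Kmt2c: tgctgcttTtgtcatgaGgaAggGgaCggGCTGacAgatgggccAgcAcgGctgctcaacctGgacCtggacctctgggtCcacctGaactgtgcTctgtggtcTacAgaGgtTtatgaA
Of the 23 differing bases, 20 are at the third position of a codon. Kmt2d has G or C at 16 of the 23 and Kmt2c at 12. Over the whole transcripts the GC content was 58.3% for Kmt2d and 46.5% for Kmt2c.

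The other H3 lysine 4 methyltransferases fell less than Kmt2d. Kmt2a, the MLL1 enzyme, went from a median of 6.63 to 5.90 in EYFP animals, a change of -0.73 (SE 0.10, limma adjusted p = 1.77e-05), and by -0.83 in hTyr animals. Kmt2b changed by -0.50 and -0.75. Setd1b, the catalytic subunit of a COMPASS complex, changed by -0.85 (SE 0.11) and -1.06 (SE 0.10), and its paralog Setd1a by -0.50 and -0.64. Of the exon bases of Setd1a, 52.3% overlap other gene models, so its reads may be shared with them. Kmt5a, which monomethylates histone H4 lysine 20, changed by -0.62 and -0.76. All of these had lower values in IP than in input in 11 of 11 animals.

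Setd2, the enzyme of H3 lysine 36 trimethylation in transcribed genes, went the other way. It ranged from 3.99 to 4.50 (median 4.14) in EYFP input and from 4.68 to 5.17 (median 5.04) in EYFP IP. In hTyr animals it was 3.49, 3.84, 4.04, 4.35 and 3.88 in input and 4.74, 4.74, 4.66, 4.67 and 4.98 in IP. The ranges were apart in both treatments, and the change was 0.79 (SE 0.11, limma adjusted p = 1.59e-05) and 0.84 (SE 0.14, limma adjusted p = 7.99e-05). Setdb1, an H3 lysine 9 methyltransferase, rose by 0.34 in EYFP animals and had a change of 0.11 (SE 0.14, limma adjusted p = 0.538) in hTyr animals.

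**Figure D2:**
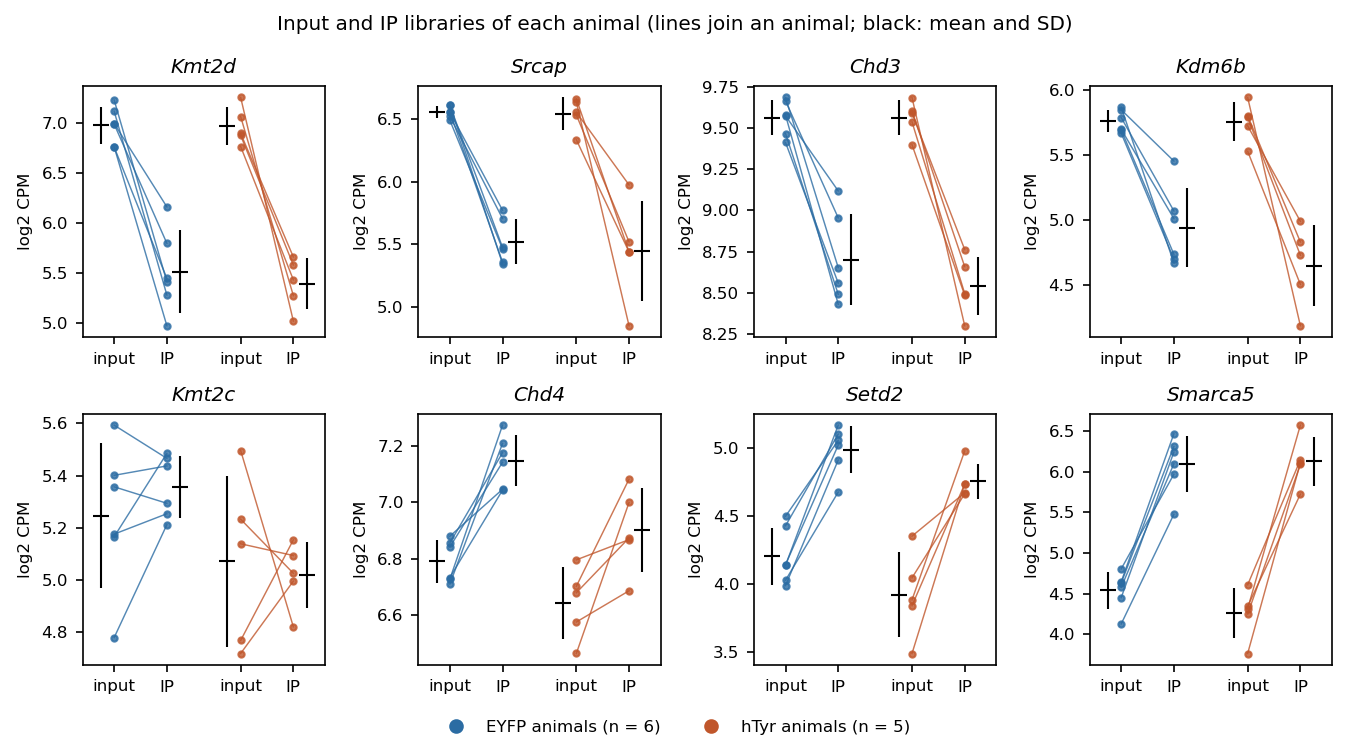
Log2 CPM (vertical axis) of 8 members in the input and IP libraries, with a line joining the 2 libraries of an animal and black marks for group mean and SD (EYFP n = 6, hTyr n = 5). Kmt2d, Srcap, Chd3 and Kdm6b run downward in 11 of 11 animals, Chd4, Setd2 and Smarca5 run upward in 11 of 11, and the lines of Kmt2c cross.

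The demethylases leaned upward instead. Of the 16 Kdm genes, 8 were higher and 3 lower in EYFP animals, against 28.5% and 28.1% of all genes. In both treatments 7 were higher (Kdm5a, Kdm4c, Kdm1b, Kdm5b, Kdm3a, Kdm1a and Kdm7a), against 24.2% of all genes. The 3 lower in both were Kdm6b, Kdm2b and Kdm2a, against 22.1% of all genes. Kdm4b was higher in EYFP animals alone, and Kdm3b, Kdm4a, Kdm5c, Kdm6a and Kdm8 passed in neither. With the animal as a block, Kdm4b passed in hTyr animals too (limma adjusted p = 0.0482). The family's median change was 0.29 and 0.32.

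Kdm6b, which removes methyl groups from H3 lysine 27, had the largest mean fall of its family. It ranged from 5.67 to 5.87 in EYFP input and from 4.67 to 5.45 in EYFP IP, and in hTyr animals it was 5.80, 5.72, 5.79, 5.94 and 5.53 in input and 4.83, 4.99, 4.73, 4.18 and 4.50 in IP. The ranges did not meet, with changes of -0.82 (SE 0.11, limma adjusted p = 2.08e-05) and -1.11 (SE 0.13, limma adjusted p = 2.97e-06). Its X-linked paralog Kdm6a changed by 0.39 (SE 0.21, limma adjusted p = 0.121) and 0.44 (SE 0.18, limma adjusted p = 0.0521). With the animal as a block the Kdm6a changes passed the threshold (limma adjusted p = 0.00256 and 0.00791). Kdm6b was the lower of the pair in 11 of 11 animals, by 1.21 ± 0.38 (SD, n = 6) and 1.55 ± 0.42 (SD, n = 5).

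Among demethylases of H3 lysine 4, Kdm5a rose from a median of 4.27 to 5.02 in EYFP animals. Its hTyr values were 3.60, 3.94, 4.18, 4.34 and 3.95 in input and 4.84, 5.04, 4.68, 5.11 and 5.42 in IP, without overlap. The change was 0.79 (SE 0.13, limma adjusted p = 7.49e-05) and 1.02 (SE 0.15, limma adjusted p = 2.7e-05). Kdm5c, the X-linked relative, had changes of 0.14 (SE 0.13) and 0.10 (SE 0.14) that passed in neither treatment. Kdm4c, which acts on H3 lysine 9 and 36, rose by 0.86 and 0.72, while Kdm4a of the same group had changes of 0.04 (SE 0.08) and 0.07 (SE 0.09). Kdm1a, the flavin-dependent demethylase LSD1, rose by 0.32 and 0.39.

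The nucleosome remodelling motors were called in both directions. Srcap (chr7:127511983-127561219, plus strand), which exchanges histone H2A for the variant H2A.Z, ranged from 6.49 to 6.61 in EYFP input and from 5.35 to 5.77 in EYFP IP. In hTyr animals it was 6.53, 6.55, 6.66, 6.64 and 6.33 in input and 5.52, 5.97, 5.44, 4.85 and 5.44 in IP. The ranges were apart, and the change was -1.04 (SE 0.08, limma adjusted p = 3.08e-07) and -1.10 (SE 0.15, limma adjusted p = 1.06e-05). Other gene models cover 66.9% of its exon bases, 1 of them on the same strand, so reads of Srcap and its neighbours may be mixed in this value. Of 21 measured partner subunits of the INO80, SRCAP and TIP60 complexes, 6 were lower and 7 higher in EYFP animals, against 28.1% and 28.5% of all genes. In hTyr animals 3 were lower and 7 higher, against 27% and 27.4% of all genes.

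Chd3 and Chd4 are alternative motors of the NuRD deacetylase complex. Chd3 (chr11:69343273-69369406, minus strand) ranged from 9.41 to 9.69 in EYFP input and from 8.43 to 9.12 in EYFP IP, and in hTyr animals it was 9.61, 9.59, 9.54, 9.69 and 9.40 in input and 8.66, 8.76, 8.49, 8.30 and 8.48 in IP. The fall was -0.86 (SE 0.11, limma adjusted p = 8.2e-06) and -1.03 (SE 0.09, limma adjusted p = 1.95e-07), with no overlap. Chd4 (chr6:125095981-125130591, plus strand) ranged from 6.71 to 6.88 in EYFP input and from 7.04 to 7.28 in EYFP IP, and in hTyr animals it was 6.58, 6.70, 6.80, 6.68 and 6.46 in input and 6.69, 7.08, 6.87, 6.87 and 7.0 in IP. Its rise was 0.36 (SE 0.06, limma adjusted p = 0.000143) and 0.26 (SE 0.09, limma adjusted p = 0.0229), and the hTyr groups overlapped. That hTyr call was lost without animal IP_502 (0.23) or animal IP_510 (0.19), and under quantile normalization (0.22) or median centring (0.19).

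Chd3 was the lower of the pair in 11 of 11 animals, by 1.22 ± 0.34 (SD, n = 6) and 1.29 ± 0.22 (SD, n = 5). Chd5, the neuronal form of the same motor, had changes of 0.03 (SE 0.07) and -0.05 (SE 0.11) and passed in neither treatment. Per kilobase of exon in EYFP animals, Chd3 went from 90.0 CPM in input to 50.1 CPM in IP, Chd4 from 13.8 to 17.7 and Chd5 from 19.0 to 19.3, so Chd3 held the highest level of the 3 in both fractions. The 40 codons in which Chd3 and Chd4 are most alike, with 39 identical residues, are shown for the same reason as above. They are bases 2872 to 2991 and 2686 to 2805 of the coding sequences (GENCODE M21, GRCm38, coding strand), with capitals at the 21 bases that differ.
Chd3: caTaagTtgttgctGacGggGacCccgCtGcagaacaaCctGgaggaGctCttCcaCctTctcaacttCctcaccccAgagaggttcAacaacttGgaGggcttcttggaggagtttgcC
Chd4: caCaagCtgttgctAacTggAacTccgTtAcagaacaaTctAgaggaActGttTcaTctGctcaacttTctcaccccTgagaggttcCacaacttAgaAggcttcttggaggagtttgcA
At the differing bases Chd3 has G or C 16 times and Chd4 5 times. The third codon positions in this stretch are G or C in 90.0% of codons in Chd3 and 60.0% in Chd4, and the whole transcripts hold 56.1% and 53.1% GC. Chd3os, transcribed from beside Chd3 on the other strand, changed by -0.63 and -0.71. In GENCODE M21 neither gene's exons overlap another gene model (0.0% of exon bases each). The counting is not stated to use strand, so reads of members that do overlap other models, such as Srcap, cannot be separated with certainty.

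Among the remaining Chd genes, Chd6 rose by 0.62 and 0.64 and Chd1, a motor that binds methylated H3 lysine 4, by 0.48 and 0.62. Chd9 also rose in both treatments, and Chd2 and Chd8 passed in EYFP animals alone. Chd8 had changes of 0.25 (SE 0.08) and 0.20 (SE 0.11), and its EYFP call was lost without animal IP_504 (0.21) or animal IP_506 (0.22). Chd7, the gene of CHARGE syndrome, had changes of -0.01 (SE 0.14) and -0.18 (SE 0.14), and Chd1l also passed in neither.

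The ISWI motors had the largest rises of the members. Smarca5 (SNF2H; chr8:80698507-80739497, minus strand) ranged from 4.13 to 4.80 (median 4.60) in EYFP input and from 5.48 to 6.47 (median 6.17) in EYFP IP. In hTyr animals it was 3.76, 4.34, 4.25, 4.32 and 4.61 in input and 6.11, 5.73, 6.09, 6.58 and 6.15 in IP. No IP library reached down to an input library, and the change was 1.56 (SE 0.14, limma adjusted p = 9.13e-07) and 1.88 (SE 0.15, limma adjusted p = 6.28e-08), or 294.6% and 367.2% of the input level.

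Smarca1 (SNF2L; chrX:47809368-47892974, minus strand), the ISWI motor enriched in mature neurons, ranged from 1.44 to 2.70 in EYFP input and from 3.26 to 4.10 in EYFP IP. Its hTyr values were 1.60, 2.24, 2.15, 2.91 and 2.04 in input and 3.50, 3.57, 3.73, 3.88 and 3.84 in IP. The change was 1.54 (SE 0.20, limma adjusted p = 1.06e-05) and 1.52 (SE 0.20, limma adjusted p = 1.06e-05), without overlap. Per kilobase Smarca5 stood above Smarca1 in each group, at 3.02 against 0.866 CPM in EYFP input and 9.0 against 2.48 CPM in EYFP IP.

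BAF subunits went both ways. Of the 13 Smarc genes 7 were higher and 3 lower in each treatment, and the same 7 and 3 were called in both. Among all genes 24.2% were higher and 22.1% lower in both treatments. The motors of the complex rose: Smarca4 (BRG1) by 0.49 (SE 0.07) and 0.42 (SE 0.09), and Smarca2 (BRM) by 0.57 (SE 0.08) and 0.61 (SE 0.11). The core subunit Smarcb1 rose by 0.53 and 0.45, and Smarcad1 and Smarcal1, motors outside BAF, rose too. Against these, the scaffold subunit Smarcc2 fell from a median of 8.65 to 8.02 in EYFP animals, by -0.55 (SE 0.07) and -0.62 (SE 0.08), and Smarcd1 by -0.45 and -0.52. Smarcd3 was also lower in both treatments, with 50.1% of its exon bases shared with other gene models. Smarcc1, the alternative of Smarcc2, had changes of -0.04 (SE 0.07) and 0.03 (SE 0.10), and Smarcd2 and Smarce1 passed in neither. Of 15 measured partner subunits of BAF and PBAF, 7 were lower and 3 higher in EYFP animals, against 28.1% and 28.5% of all genes. In hTyr animals 4 were lower and 3 higher, against 27% and 27.4% of all genes. The 15 include the members Brd7 and Brd9, and Brd9 is among the 3 higher in hTyr animals.

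The mutually exclusive BAF subunits Arid1a and Arid1b were called in opposite directions. Arid1a ranged from 5.96 to 6.06 in EYFP input and from 5.62 to 5.91 in EYFP IP, and in hTyr animals was 5.99, 5.93, 6.03, 5.93 and 6.00 in input and 5.46, 5.75, 5.35, 5.60 and 5.80 in IP. It was lower in IP without overlap, by -0.31 (SE 0.06, limma adjusted p = 0.000588) and -0.38 (SE 0.09, limma adjusted p = 0.00248). Arid1b was 5.20, 5.21, 5.19, 5.31 and 5.21 in hTyr input and 5.62, 5.69, 5.54, 5.69 and 5.78 in hTyr IP, and rose by 0.44 (SE 0.08, limma adjusted p = 0.000235). In EYFP animals Arid1b rose by 0.36 (SE 0.10, limma adjusted p = 0.00496), in 5 of 6 animals. Arid2, the PBAF counterpart, rose by 0.43 and 0.40, and Arid4b, a subunit of the Sin3 deacetylase complex, by 0.74 and 0.98. Arid4a rose in both treatments, Arid3a and Arid3b fell in both (Arid3b by -0.71 and -0.73), Arid5a was lower in hTyr animals alone, and Arid5b passed in neither. With the animal as a block, Arid5a passed in EYFP animals too (limma adjusted p = 0.0209).

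Among the bromodomain genes, Brd2 fell from a median of 7.87 to 7.20 in EYFP animals, by -0.63 (SE 0.09) and -0.62 (SE 0.11). Brd3, a close relative of Brd2, had changes of -0.15 (SE 0.06, limma adjusted p = 0.0625) and -0.06 (SE 0.08, limma adjusted p = 0.54), of which the first passed with the animal as a block (limma adjusted p = 0.0446). Brd1 was higher in both treatments, Brd9 in hTyr animals alone, and Brd7 and Brd8 passed in neither. With the animal as a block, Brd9 passed in EYFP animals too (limma adjusted p = 0.042).

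A stricter reading asks that all IP libraries lie on one side of all input libraries in both treatments. Then 14 of 72 members were below, where 9.04% of all genes were, and 15 were above, where 13.9% of all genes were. Among those below were Kmt2d, Srcap, Kdm6b, Chd3, Setd1b, Kmt2a, Chd3os, Kmt2b, Brd2, Smarcc2, Setd1a, Smarcd3 and Arid1a.

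Further lists of chromatin genes are given beside all genes. Of all genes 28.1% were lower and 28.5% higher in EYFP animals, and 27% and 27.4% in hTyr animals. Of 15 COMPASS and MLL partner subunits 3 were lower and 5 higher in EYFP animals, and 3 and 4 in hTyr animals. Of 28 Polycomb genes 12 were lower and 6 higher in EYFP animals, and 10 and 8 in hTyr animals. The Polycomb list includes the member Kdm2b, which is among the lower genes in each treatment. NuRD, HDAC and sirtuin genes gave 10 lower and 8 higher of 32 in EYFP animals and 11 and 7 in hTyr animals. For histone acetyltransferases the counts were 4 and 2 of 19, and 5 and 2. DNA methylation genes were lower 8 times and higher 3 times of 15, then 7 and 3, and other histone methyltransferases 7 and 8 of 22, then 7 and 7.

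Related members were set side by side in 27 pairs of the same subfamily. In 12 pairs the same gene was the lower in 11 of 11 animals. Both genes were lower in 5 pairs and both higher in 5, and in 2 pairs, Chd3 with Chd4 and Arid1a with Arid1b, one was lower and the other higher in both treatments. In 23 of the 27 pairs the gene with the lower change had the transcript of higher GC content. Smarcc2 was below Smarcc1 by 0.51 ± 0.23 (SD, n = 6) and 0.65 ± 0.21 (SD, n = 5), and Brd2 below Brd3 by 0.48 ± 0.15 and 0.56 ± 0.16. Smarca1 and Smarca5 differed by 0.02 ± 0.30 and 0.36 ± 0.58, less than the spread between animals.

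**Figure D3:**
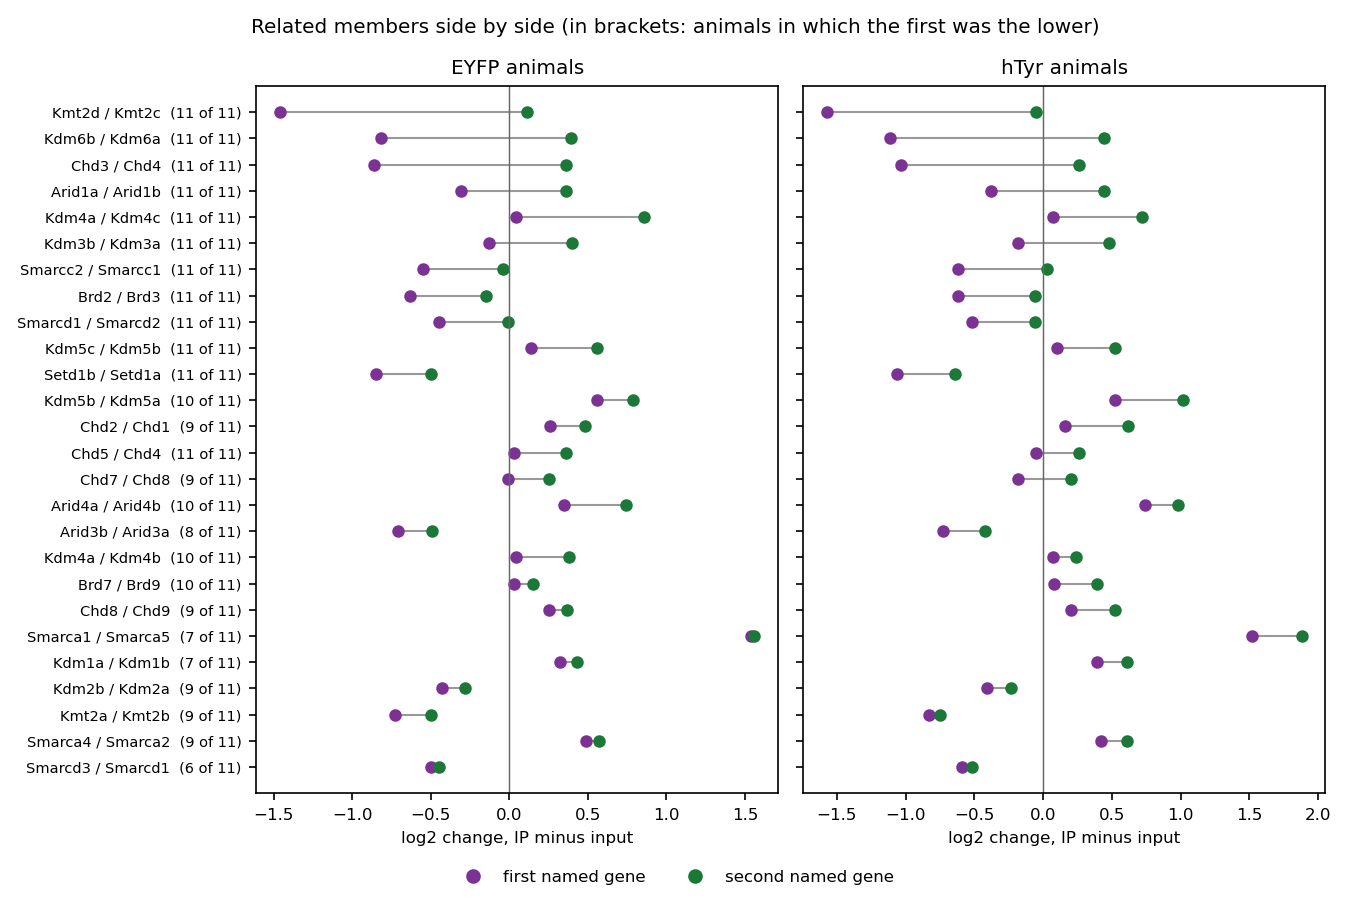
Log2 change between IP and input (horizontal axis) of the 2 genes of each of 26 of the 27 related pairs, in EYFP animals (left) and hTyr animals (right), ordered by the gap, with the number of animals in which the first gene was the lower in brackets. The widest gaps are those of Kmt2d with Kmt2c, Kdm6b with Kdm6a, and Chd3 with Chd4, each in the same order in 11 of 11 animals.

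Base composition went with the direction of the change. Members lower in both treatments had a median transcript GC content of 54.7% (range 45.7% to 59.6%, n = 22), members higher in both 45.0% (40.3% to 56.1%, n = 24), and the rest 49.2% (n = 26). The medians of all genes were near these, at 53.5% for those lower in both (n = 2707) and 45.8% for those higher in both (n = 3021). The Spearman rho between GC content and change was -0.641 in EYFP and -0.694 in hTyr animals over the 72 members, and -0.366 and -0.465 over 12371 genes with a value. Within single families it lay between -0.613 (Brd) and -0.719 (Kmt and Setd) in EYFP animals and between -0.505 (Brd) and -0.803 (Kdm) in hTyr animals. At the third codon positions, the median GC was 62.6% for members lower in both treatments and 46.0% for those higher in both. Over all genes with a coding sequence it was 61.4% (n = 11978), near that of the lower members. These are descriptions across genes, which share libraries and are not independent.

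**Figure D4:**
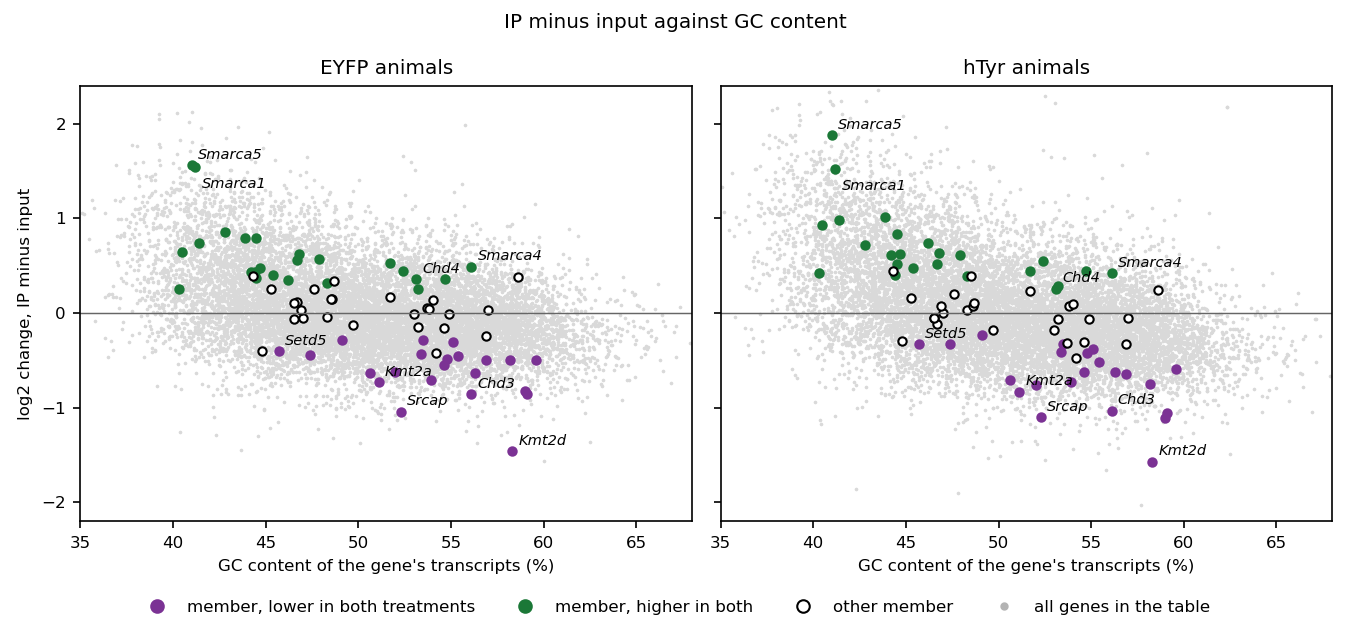
Log2 change between IP and input (vertical axis) against GC content of the gene's transcripts in percent (horizontal axis) for all genes (grey) and the members, coloured by their calls, in EYFP animals (left) and hTyr animals (right). Purple points, lower in both treatments, lie mostly to the right with a median GC of 54.7%, and green points, higher in both, mostly to the left with a median of 45.0%, while Smarca4 and Chd4 are higher at a GC content above 50%.

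Length did not go with the change in the same way. The members are long, with a median exon length of 8304 bases against 4598 for all genes, yet the rho between exon length and change was 0.085 and 0.077. Each library's trend on length and GC content was also removed. In EYFP animals 21 members were then lower and 20 higher, against 28.7% and 26.8% of all genes. In hTyr animals 22 were lower and 21 higher, against 26.2% and 25.2% of all genes. Kmt2d then had changes of -0.96 and -0.93, Srcap -0.88 and -0.89, Chd3 -0.61 and -0.69, and Smarca5 1.12 and 1.27, all past the threshold. The calls of Arid1a (-0.07 and -0.06), Arid2 (0.16 and 0.01), Smarcad1 (0.11 and 0.20) and Chd1 (0.25 and 0.28) were lost in both treatments, as were those of Chd9, Kdm3a and Kdm1b. In EYFP animals the calls of Kmt2b (-0.16), Chd8 (0.15), Setd4 (-0.29) and Chd2 (0.02) were lost. In hTyr animals those of Arid4b (0.30), Arid3a (-0.24), Kdm2b (-0.18), Setd6 (-0.26) and Arid5a (0.10, where it had been -0.33) were lost. Chd5 gained calls in both treatments (0.33 and 0.35), and Kmt2c (-0.27), Kdm4a (0.23), Kmt2e (-0.65), Kdm4b (0.52), Brd8 and Chd1l gained one in hTyr animals. Kdm7a, singled out after its values were seen, went from 0.25 and 0.42 to -0.27 and -0.29, past the threshold on both sides.

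Noncoding RNAs from a list written as nuclear-retained were set beside the members, since nuclear RNA is out of reach of ribosomes. Where each of these RNAs lies in the cell was not measured, and not all of them need be nuclear. Of 11 listed RNAs 7 were lower in IP in each treatment, against 28.1% of all genes in EYFP and 27% in hTyr animals. In EYFP animals 0 were higher, against 28.5% of all genes, and in hTyr animals 1 was, against 27.4%. The median change of the listed RNAs was -0.76 and -0.94, and Malat1 changed by -1.29 and -1.86. Across animals the Malat1 difference ran from 0.11 in EYFP animal IP_505 to -2.78 in hTyr animal IP_509, and the smallest and largest Kmt2d differences, -0.83 and -2.23, were in the same 2 animals. Between these the order was not the same for both RNAs. EYFP animal IP_507 had -1.81 for Kmt2d and -1.42 for Malat1, and hTyr animal IP_502 had -1.33 and -1.75. The part of nuclear RNA in the members' changes was not tested.

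hTyr against EYFP asks whether the pigment enzyme went with a change of these RNAs. No member passed the adjusted threshold in IP, where 0.0556% of all genes did, in input, where 0.00794% did, or in the difference between the fractions' effects (the interaction), where 0.00794% did. The lowest adjusted p of a member was 0.486 in IP, 0.99 in input and 0.996 in the interaction (limma). At an unadjusted p under 0.05 there were 14 members in IP, where 6.19% of all genes were, 2 in input, where 3.03% were, and 3 in the interaction, where 3.31% were. With voom on the recovered reads these counts were 13, 0 and 3. Of the 14 in IP, 12 were lower in hTyr, where 3.31% of all genes were lower at that level.

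The 14 were lower Kmt2c, Brd8, Chd4, Setdb1, Chd2, Chd7, Setd1b, Arid2, Setd6, Setd2, Chd8 and Arid5b, and higher Brd9 and Arid4a. The number was 7 without hTyr animal IP_501 (4.38% of all genes), 8 without EYFP animal IP_511 (4.47%) and 9 without EYFP animal IP_504 (8.59%). It was 8 with the noradrenergic score as a covariate (3.9% of all genes), 9 with total reads (5.47%) and 10, of which 9 were lower, after removal of the trend on length and GC content (6.01%). In input the number was 11 without hTyr animal IP_509 (8.53% of all genes), 7 without EYFP animal IP_505 (4.56%), 4 without hTyr animal IP_508 (3.18%), 1 without EYFP animal IP_504 (2.12%) and 0 without animal IP_501, IP_507 or IP_511. In the interaction it was 1 without EYFP animal IP_512 (2.83%). Over all members the median difference between hTyr and EYFP was -0.09 in IP and -0.08 in input, with 55 and 60 of 72 members negative. With the length and GC trend removed both medians were -0.03. Among all genes 6524 and 6756 of 12596 were negative. The members' differences in input had a Spearman rho of 0.557 with GC content and -0.404 with exon length, and those in IP -0.211 and -0.153. Over all genes with a value the rho was 0.426 and -0.401 in input, and -0.259 and -0.052 in IP.

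Kmt2c had the lowest p in IP. Its EYFP IP libraries lay between 5.21 and 5.49 and its hTyr IP libraries, given above, between 4.82 and 5.15, without overlap. The difference was -0.34 (SE 0.09, limma unadjusted p = 0.00145, adjusted p = 0.486). Brd8, a subunit of the TIP60 acetyltransferase complex, lay between 4.82 and 5.08 in EYFP IP and was 4.59, 4.49, 4.57, 4.64 and 4.63 in hTyr IP. These also did not overlap, with a difference of -0.32 (SE 0.09, limma unadjusted p = 0.00158, adjusted p = 0.511). Kmt2c and Brd8 were picked for their low p, so the lack of overlap is no separate result. The share of all genes without overlap between treatments is not given. Chd4 differed by -0.25 (SE 0.08, limma adjusted p = 0.701) in IP, where its groups overlapped, and by -0.15 in input.

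The lowest interaction p-values were those of Setd6 (-0.37), Arid4a (0.39) and Brd8 (-0.24). Setd6, which methylates non-histone proteins such as RelA, was 3.73, 3.78, 3.68, 3.74 and 3.74 in hTyr input and 3.53, 3.33, 3.42, 3.58 and 3.18 in hTyr IP, while in EYFP animals it ranged from 3.31 to 3.89 in input and from 3.54 to 3.89 in IP. Thus hTyr IP lay below hTyr input in 5 of 5 animals and EYFP IP below EYFP input in 3 of 6. None of these differences passed the adjusted threshold.

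**Figure D5:**
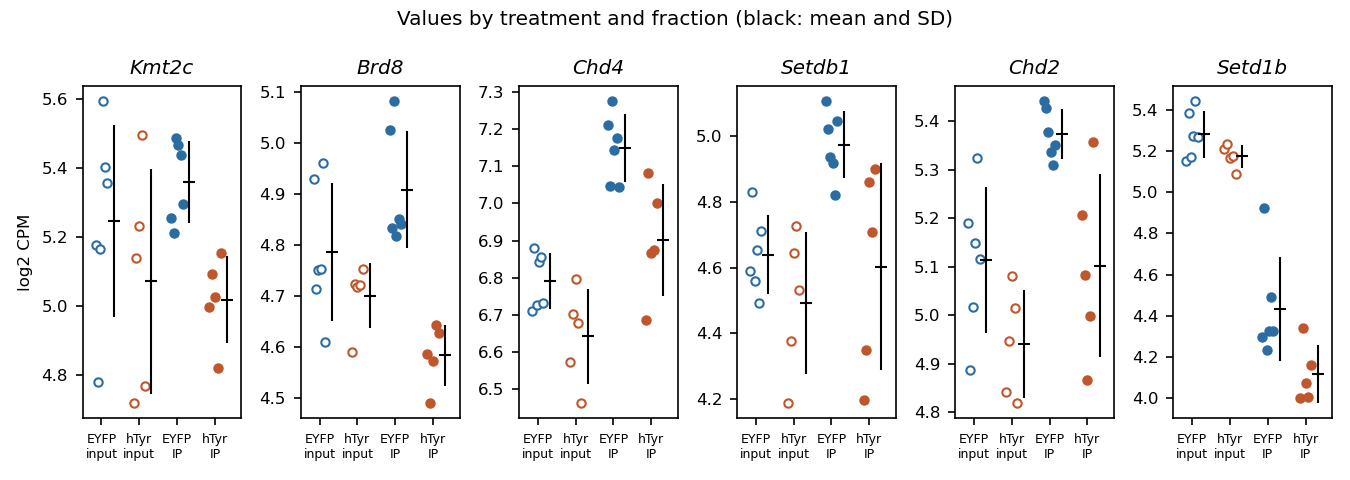
Log2 CPM (vertical axis) of 6 members by treatment and fraction, 1 point per library (open for input, filled for IP) with mean and SD in black (EYFP n = 6, hTyr n = 5). Kmt2c and Brd8 in hTyr IP lie wholly below EYFP IP, while Chd4, Setdb1, Chd2 and Setd1b overlap, and none passed the adjusted threshold. All 6 had an unadjusted p under 0.05 in IP (limma), so a lack of overlap is no separate result.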

How the data were processed

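RNA was sequenced from IP and input of 11 mice (22 libraries). Per the submitters' processing notes, reads were aligned with STAR to mm10 and counted with featureCounts. Versions, annotation, strand setting, filter and normalization are not given in the sources used here. The authors deposited log2 values in 1 table. Back-transformed, 100% came out as whole reads (within 0.05 of a whole number) under a CPM scale with a pseudocount of 2 reads on average, which gives the depth of 12654489 to 25100142 reads. Read totals speak of counting error only.

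The deposited log2 CPM of all 12596 genes were fitted with limma 3.58.1 in R 4.3.3 (lmFit, eBayes with trend), only the groups compared entering a fit (22 libraries for the interaction). The p-values are two-sided, adjusted by Benjamini-Hochberg, threshold 0.05. Scripts were tested on simulated data. The members and lists were chosen with earlier results of these data known. The named members are a fixed core, the 10 largest falls and rises among those called alike in both treatments, and those lowest in p between treatments. Others appear with their family's counts. Values of 1 member are not reported here, though it is in the counts.

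Animal numbers in the titles pair IP with input: deviations from group means correlated within an animal (mean r 0.448, range 0.279 to 0.626, 11 animals) and not between animals (mean -0.096). The main fits of IP against input and of the interaction had no term for the animal, so their p-values did not use this pairing. A block for the animal was among the alternatives. With it, 6.94% of all genes and 4 members had an unadjusted interaction p under 0.05 (limma), against 3.31% and 3 members in the main fit. The p-values measure spread between libraries of these animals. Gene models, lengths and GC content came from GENCODE M21 (GRCm38), matched by symbol for 71 members and by an older symbol for 1, with a length for 12377 genes (98.3%). Coding sequences were aligned with Biopython 1.88 in Python 3.11.15 (matplotlib 3.10.9 for figures).

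Alternatives were no trend, quantile normalization, median centring, the upper 75% of genes by mean, 5 CPM added, a shared spread, an absolute change of at least 1, voom, the replicate block, removal of the length and GC trend (loess, span 0.4) with and without the block, covariates for noradrenergic score and total reads, and leaving out each animal. A Y-linked score (Ddx3y, Uty and Eif2s3y) was added as a covariate after the data were seen.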

Additional observations from a re-analysis of the deposited data

Results flagged for a closer look

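In 184 groups of 5 or 6 libraries (46 named members in 4 groups each), 9 had a library set apart from the rest by Dixon's criterion, where chance gives about 1 in 20, or 9.2. All values are log2 CPM. In hTyr input, animal IP_501 was the lowest for Kdm6a (2.82, nearest 3.71), Smarcad1 (2.16, nearest 3.04) and Brd8 (4.59, nearest 4.72). In the same group Setd1a was lowest in animal IP_510 (5.44, nearest 5.74) and Arid1b highest in animal IP_509 (5.31, nearest 5.21). EYFP animal IP_505 was the lowest for Smarca1 both in input (1.44, nearest 2.42) and in IP (3.26, nearest 3.95). Chd1 was lowest in EYFP IP of animal IP_504 (3.43, nearest 3.70), and Setd2 highest in hTyr IP of animal IP_510 (4.98, nearest 4.74).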

How the results depend on the processing

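Counts of members called lower and higher between IP and input stayed within 1.5 times of their main values under the alternatives run, except where an absolute log2 change of at least 1 was asked for. Then 2 were lower and 2 higher in EYFP animals, and 5 lower and 3 higher in hTyr animals. The share of all genes at that size of change is not given, so these counts have no background beside them. The medians over members lie near 0 and changed sign: the EYFP median was 0.00 under median centring, and the hTyr median was -0.04 under quantile normalization, -0.05 under median centring and -0.02 in the upper 75% of genes. Without single animals the hTyr median ranged from 0.00 (without animal IP_502) to 0.06. With the replicate block, 26 members were lower and 30 higher in EYFP animals, against 33.1% and 31.5% of all genes. In hTyr animals 25 were lower and 27 higher with the block, against 30% and 29.1% of all genes. An interaction was called for 0 members, where 0.0397% of all genes had one. The Y-linked covariate left 0 members called between treatments in IP and in input. Of the alternatives for the members named by the rule, 29 lost a call, 17 gained one and none reversed a called value. Outside the rule, with the length and GC trend removed, Kdm7a reversed to -0.27 and -0.29, and Arid5a in hTyr animals went from -0.33 to 0.10 and lost its call. Fold changes near 0 at few reads are limited by depth: 2 members had a library under 50 reads.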

Other observations

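Kdm6a and Kdm5c, X-linked demethylases with Y-linked relatives, varied between animals along with Y-linked RNA, which the labels do not mention. In input, 5 animals (3 EYFP, 2 hTyr) had Ddx3y between 3.65 and 4.21 log2 CPM and 6 animals (3 EYFP, 3 hTyr) between -3.21 and -2.66. Kdm6a lay between 2.82 and 3.71 in the 5 and between 3.80 and 3.91 in the 6. In IP of the same animals it lay between 3.38 and 3.88 in the 5 and between 3.99 and 4.49 in the 6, again without overlap. Kdm5c lay between 5.15 and 5.56 in input of the 5 and between 5.64 and 5.81 in the 6, and its IP ranges, 5.38 to 5.56 and 5.44 to 6.11, overlapped. The X-linked Smarca1 overlapped in both fractions. These groups were formed from the data, and no test was made.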
